A study of Mus musculus with 12 samples.

Results

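Of the genes that mark cells as monocytes or macrophages, 8 were followed in sorted tumor-associated macrophages (TAMs): Ly6c2, Plac8, Spi1, Maf, Csf1r, Cd68, Itgam and Adgre1. They were chosen by name as well-known identity genes, with no threshold on their values but with earlier results of these data known. Their shares beside those of all genes are therefore a description. Each is on 1 row of the 55401 genes listed in each of the 2 count tables. All 8 passed the filter on low counts in both tables, where 17532 and 17630 genes were tested. Ly6c2 and Plac8 were higher in AMPK-KO than in WT TAMs and lower in Late than in Early TAMs, while Adgre1 and Spi1 passed the test in neither comparison.

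Classical monocytes leave the blood, enter inflamed tissue or a tumor, and mature there into macrophages. On the way they lose surface Ly6C and other monocyte proteins and gain or keep F4/80, the macrophage receptor tyrosine kinase for CSF1, and a large lysosomal compartment. The transcription factor PU.1 holds the myeloid program in both cell types, and MAF family factors act in differentiated macrophages.

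The TAMs came from subcutaneous B16-F10 tumors, a melanoma line of C57BL/6 mice, with no drug treatment in any group. In the knockout experiment, 3 WT samples came from mice labelled AMPKfl/fl, a genotype that names the floxed allele and no Cre, and 3 AMPK-KO samples from AMPKfl/flLyz2cre/cre mice, in which Cre is driven from the lysozyme 2 locus of myeloid cells. In 2 of the AMPK-KO samples the genotype label names Lyz3 or Lyz4 in place of Lyz2. Both groups were taken at day 15 after implantation according to the methods of the study. In the stage experiment, 3 Early samples (day 8) and 3 Late samples (day 15) came from mice labelled WT. The methods give the mice as C57BL/6 in background and 5 weeks old at use. TAMs were gated for sorting on CD45, CD11b, Ly6C, Ly6G and F4/80, so Itgam (CD11b), Adgre1 (F4/80) and Ly6c2 (Ly6C) encode proteins used to choose the cells. The sources conflict on the gate for Ly6C, which the methods give as negative and legends of the supplement as positive. The labels do not say that the samples of a group came from separate mice, so p-values measure the spread between these samples.

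Library totals ranged from 71019494 to 84470374 counts. Prkaa1, the targeted AMPK subunit gene, was at 62.8 to 68.8 CPM (counts scaled by library total and TMM factor) in WT and 40.8 to 47.0 CPM in AMPK-KO samples, a log2 fold change of -0.60 (adjusted p = 2.3e-04). Lyz2 was at 9.16 to 13.5 CPM in all 6 samples of that experiment, WT included, against 1092 to 3009 CPM in the stage experiment. Cre is inserted at Lyz2, so a level in WT samples as low as in AMPK-KO samples goes against a WT genotype without Cre. This bears on every AMPK-KO against WT value below, where both names stand for libraries as labelled. Lyz1, the neighboring lysozyme gene, went the other way, at 314 to 500 CPM in the knockout and 28.8 to 104 CPM in the stage experiment. How reads were assigned between Lyz1 and Lyz2 is not stated, and its part in the Lyz2 level was not tested. Summed counts of 4 Y-linked genes were 3435 to 4035 in Early and 0 to 4 in Late samples, so that sex and stage cannot be told apart, whereas they were 9229 to 12183 across WT and AMPK-KO samples although the methods name female mice. Apart from Lyz1, Lyz2 and the Y-linked genes, levels were not compared between the 2 tables, which also differ by experiment. The macrophage core list of 32 genes, which includes Adgre1, Csf1r, Cd68 and Maf, summed to 32519.7 to 43269 CPM in every sample. No other cell type was sequenced to set beside it, so the sum does not test the TAM label.

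In GRCm38 (GENCODE M21) the genes are protein-coding, with Ly6c2 at chr15:75108158-75111970 (minus strand), Plac8 at chr5:100553725-100572245 (minus), Spi1 at chr2:91082390-91115756 (plus), Maf at chr8:115682942-115707794 (minus), Cd68 at chr11:69664213-69666153 (minus), Itgam at chr7:128062640-128118491 (plus) and Adgre1 at chr17:57358691-57483527 (plus).

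Because Ly6c2 and Plac8 moved together in both comparisons, their promoters are shown, from 250 bases before to 50 after an annotated start (RefSeq, GRCm38.p6), 1 of 2 starts listed for each gene. Ly6c2 lies on chromosome 15 and Plac8 on chromosome 5, both on the minus strand, and the windows are chr15:75111922-75112221 and chr5:100572156-100572455. Capitals mark AGGAAGT, a motif of the ETS family to which PU.1 belongs, searched on both strands.
Ly6c2: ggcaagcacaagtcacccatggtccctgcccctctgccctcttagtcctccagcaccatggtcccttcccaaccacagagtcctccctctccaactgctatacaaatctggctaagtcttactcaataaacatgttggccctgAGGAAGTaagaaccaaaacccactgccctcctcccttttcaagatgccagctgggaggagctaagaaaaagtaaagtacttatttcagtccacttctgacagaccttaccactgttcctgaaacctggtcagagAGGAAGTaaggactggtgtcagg
Plac8: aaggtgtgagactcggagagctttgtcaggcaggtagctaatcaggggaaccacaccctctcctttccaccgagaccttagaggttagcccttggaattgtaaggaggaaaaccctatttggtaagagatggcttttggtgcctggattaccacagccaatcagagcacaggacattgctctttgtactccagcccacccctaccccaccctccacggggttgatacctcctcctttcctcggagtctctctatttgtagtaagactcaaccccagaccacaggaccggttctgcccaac
The Ly6c2 window held the motif 2 times on the strand of the gene, 1 before and 1 after the start. In the window of the other Ly6c2 start (chr15:75111888-75112187), which overlaps it, both lay before the start. Neither Plac8 window held the motif. Across 32851 promoters of this length, 9.35% held AGGAAGT. TTGCGCAA, a C/EBP palindrome, and TGCTGA, a partial site of MAF factors, were in none of the windows of the 4 members matched (Ly6c2, Plac8, Cd68 and Itgam) and in 0.183% and 19.5% of all promoters. A match describes the letters and not a bound site.

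**Figure D1:**
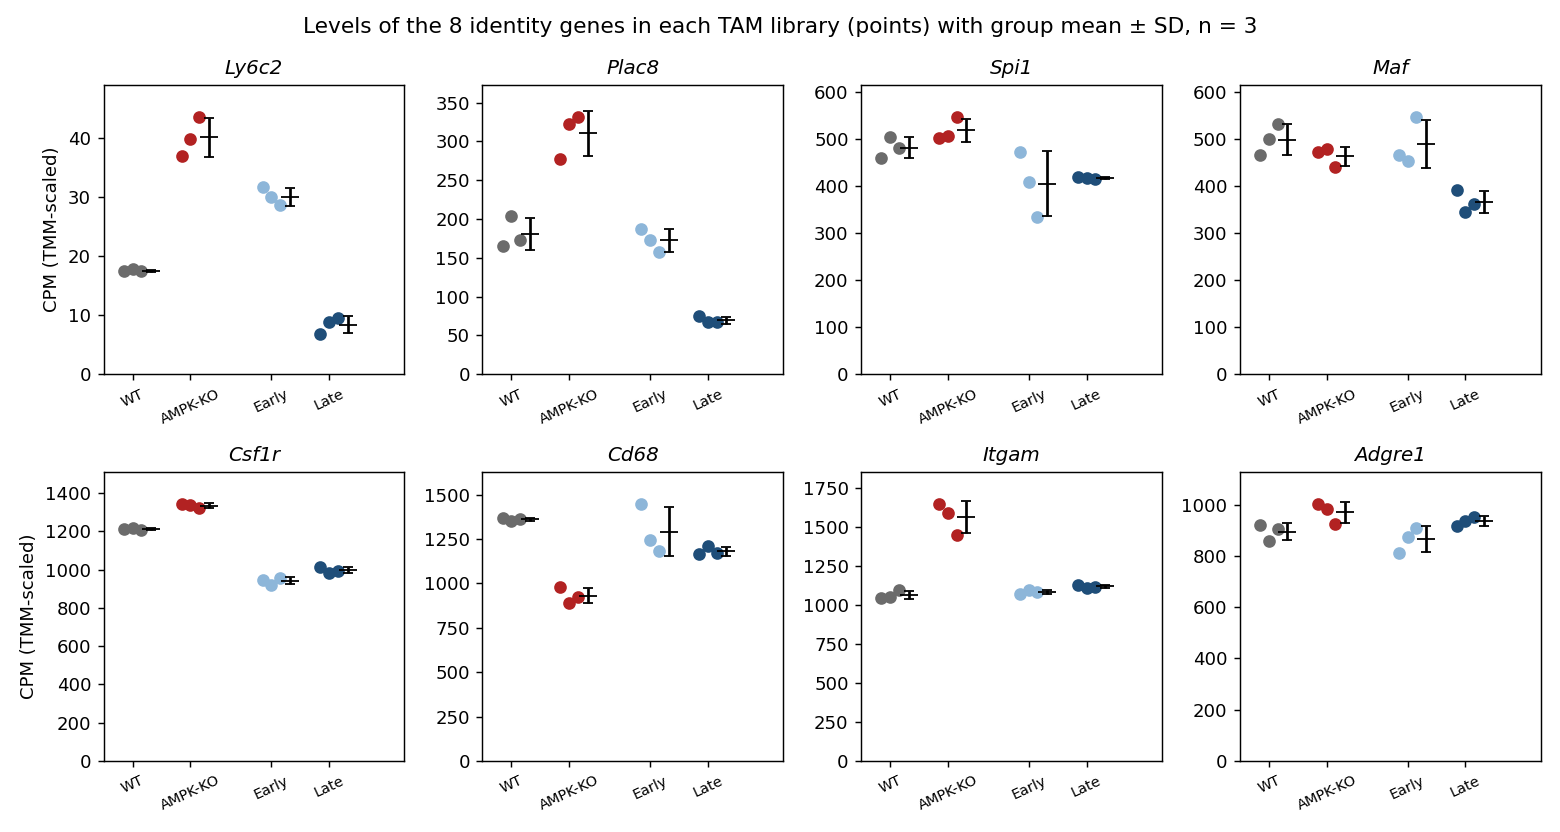
CPM of each identity gene (1 panel each, linear axis from 0) in the 3 WT, 3 AMPK-KO, 3 Early and 3 Late samples, with the mean ± SD as black bars. The AMPK-KO points of Ly6c2 (37.1 to 43.6 CPM) and Plac8 (278 to 331 CPM) lie above the WT points, and the Late points lie below the Early points for both genes.

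To compare identity genes between the genotypes as labelled, AMPK-KO samples were set against WT samples with edgeR's quasi-likelihood test. It was adjusted over all genes by the Benjamini-Hochberg method, and all adjusted p-values below come from it unless DESeq2 is named. Of the 8 genes, 4 were higher (11.3% of all genes tested were), 1 was lower (9.78%) and 3 did not pass, so that 5 passed against 21.1% of all genes. At an unadjusted p with edgeR 5 were higher, with Adgre1 added, and 1 lower, and at an adjusted p with DESeq2 4 were higher and 1 lower. Only Ly6c2 among them also exceeded an absolute log2 fold change of 1, as 3.34% of genes did. The values of the groups did not overlap in 6 of the 8 genes (37.2% of all genes), 5 of them higher (18.8%) and 1 lower (18.4%). The median absolute log2 fold change was 0.343 over the 8 genes and 0.224 over all genes tested.

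Ly6c2 encodes the Ly6C antigen, a GPI-anchored surface protein that is high on classical monocytes and is also carried by some T and NK cells. It was at 17.5, 17.8 and 17.5 CPM in WT samples and 37.1, 39.8 and 43.6 CPM in AMPK-KO samples. Each AMPK-KO value lay above all WT values, and the WT values spread little. The mean was 17.6 ± 0.163 CPM (SD, n = 3) in WT and 40.2 ± 3.27 CPM (SD, n = 3) in AMPK-KO samples. The change was 2.29-fold, or 1.19 on the log2 scale (SE 0.08, 95% interval 1.02 to 1.37, adjusted p = 3.4e-06). In bulk samples, more cells of a type and more RNA per cell cannot be told apart. Ly6c1, its near-identical neighbor, was at 1.22 ± 0.479 and 1.96 ± 0.368 CPM (adjusted p = 0.158). It shares 15.8% of the 100-base windows of Ly6c2, and with its counts added to those of Ly6c2, an alternative chosen after seeing the data, the log2 fold change was 1.17.

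Plac8 encodes a small cysteine-rich protein abundant in circulating monocytes. In WT samples it was at 165, 203 and 173 CPM, and in AMPK-KO samples at 278, 322 and 331 CPM, with no overlap between the groups. The means were 180.3 ± 20.5 and 310.4 ± 28.6 CPM (SD, n = 3), a 1.72-fold increase (log2 fold change 0.78, SE 0.09, 95% interval 0.59 to 0.98, adjusted p = 1.3e-04).

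Spi1 encodes PU.1, the ETS factor on which monocytes and macrophages depend. Its values of 459, 505 and 482 CPM in WT and 504, 506 and 547 CPM in AMPK-KO samples overlapped. The log2 fold change was 0.11 (95% interval -0.01 to 0.22, adjusted p = 0.186). Maf encodes c-MAF, a bZIP factor of differentiated macrophages. It was at 465, 499.9 and 532 CPM in WT and 473, 478 and 441 CPM in AMPK-KO samples, which also overlapped (log2 fold change -0.11, 95% interval -0.23 to 0.02, adjusted p = 0.232).

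Csf1r encodes the receptor for CSF1 and IL-34, on which macrophages depend for survival. It was at 1210.1, 1216 and 1208 CPM in WT samples and 1344, 1338 and 1320.2 CPM in AMPK-KO samples. The groups did not overlap, and the difference was small next to that of Ly6c2. Means of 1211 ± 3.72 and 1334 ± 12.3 CPM (SD, n = 3) gave a log2 fold change of 0.14 (SE 0.04, 95% interval 0.06 to 0.22, adjusted p = 0.0177). The call was lost without WT replicate 3 (adjusted p = 0.0895), AMPK-KO replicate 1 (0.0669) or AMPK-KO replicate 2 (0.0762), with log2 fold changes of 0.13 to 0.15 over all libraries left out. Of the ligands, Csf1 rose from 15.3 ± 1.22 to 19.9 ± 1.44 CPM (adjusted p = 0.0199) and Il34 was at 0.0678 to 0.380 CPM.

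Cd68 encodes a heavily glycosylated protein of late endosomes and lysosomes in the LAMP family, and was the only one of the 8 genes to fall. It was at 1369.8, 1351 and 1364 CPM in WT and 978, 892 and 925 CPM in AMPK-KO samples, with every AMPK-KO value below the WT values. From 1361 ± 9.79 to 931 ± 43.6 CPM (SD, n = 3), it was 1.46-fold lower (log2 fold change -0.55, SE 0.04, 95% interval -0.64 to -0.45, adjusted p = 1.2e-05). Lamp1, another lysosomal membrane glycoprotein, fell from 1487 to 1246 CPM (adjusted p = 6.8e-04), and Lamp2 differed by 0.07 on the log2 scale (adjusted p = 0.411).

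Itgam encodes CD11b, the alpha chain that pairs with Itgb2 (CD18) to form complement receptor 3. It was at 1047, 1055 and 1098 CPM in WT and 1651, 1593 and 1453 CPM in AMPK-KO samples, with no overlap. The means of 1067 ± 27.4 and 1566 ± 102 CPM (SD, n = 3) differed 1.47-fold (log2 fold change 0.55, SE 0.05, 95% interval 0.44 to 0.67, adjusted p = 3.4e-05). Its partner Itgb2 rose by 0.36 (adjusted p = 6.8e-05) and Itgax, which encodes CD11c, by 1.10 (adjusted p = 7.3e-07), both on the log2 scale. Of the 100-base windows of Itgam, 71.0% are shared with the overlapping gene model Gm49368, and how reads in them were assigned is not stated. Gm49368 was at 2.81 to 50.7 CPM in these samples, the highest in WT replicate 1, and with its counts added to Itgam, an alternative chosen after seeing the data, the log2 fold change was 0.54.

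Adgre1 encodes F4/80, an adhesion GPCR of mouse macrophages. It was at 922, 857 and 904 CPM in WT and 1004, 984 and 925 CPM in AMPK-KO samples. The groups did not overlap, but the lowest AMPK-KO value lay within a few CPM of the highest WT value. The log2 fold change of 0.12 (95% interval 0.02 to 0.22) did not pass the test (adjusted p = 0.102). Adgre4 rose from 7.34 ± 0.348 to 12.1 ± 0.325 CPM (adjusted p = 6.2e-04), and Adgre5 differed by -0.14 on the log2 scale (adjusted p = 0.106). Per 100 reads of Adgre1, Ly6c2 had 1.90 to 2.07 reads in WT and 3.69 to 4.71 in AMPK-KO samples, and Cd68 had 149 to 158 and 90.6 to 99.9.

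**Figure D2:**
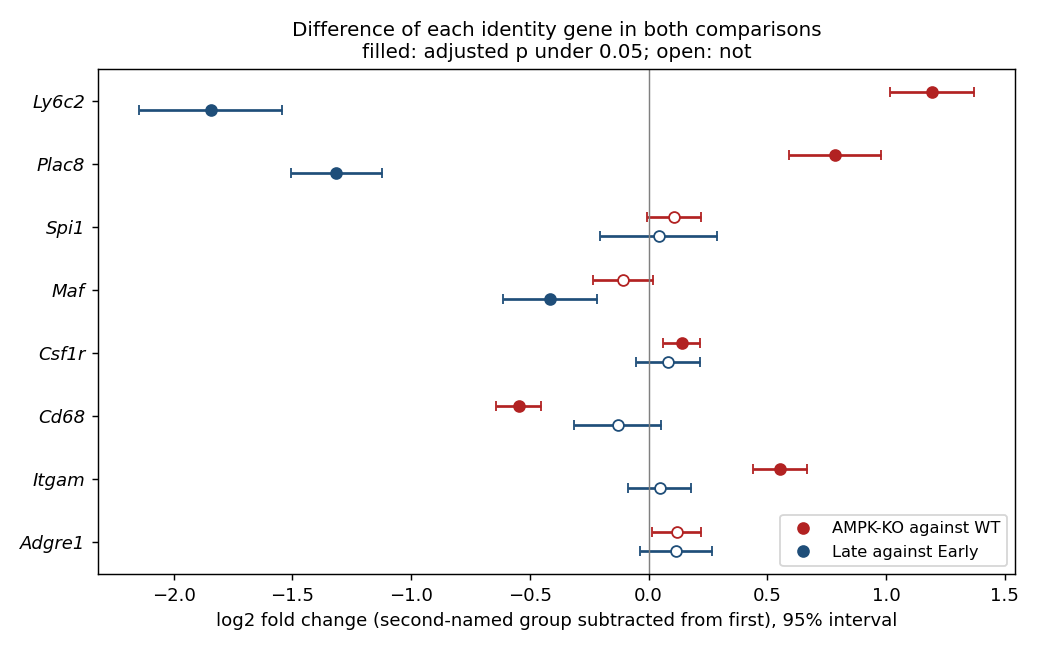
Log2 fold change of each identity gene (points) with its 95% interval (bars), for AMPK-KO against WT in red and Late against Early in blue, filled where the adjusted p was under 0.05. Ly6c2 and Plac8 lie right of 0 in the first comparison and left of 0 in the second, Cd68 (-0.55) and Itgam (0.55) lie away from 0 in the first alone, and Adgre1 and Spi1 have open points in both.

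The wider lists of genes with the same roles were uneven. In AMPK-KO against WT, 11.3% of all genes tested were higher and 9.78% lower, the shares to set beside each list count below. In AMPK-KO samples 6 of the 15 classical monocyte genes tested were higher and 1 was lower (2 without WT replicate 1 or AMPK-KO replicate 3), with a median log2 fold change of 0.12. Besides Ly6c2 and Plac8, Ccr2, the receptor that brings monocytes out of the bone marrow, was at 237 ± 9.15 CPM in WT and 405 ± 20.4 CPM in AMPK-KO samples, an increase of 0.77 on the log2 scale (adjusted p = 4.3e-06), and Ms4a4c rose by 0.60. F13a1, which encodes a coagulation factor XIII subunit, fell (log2 fold change -0.44, adjusted p = 8.4e-05). Chil3, Vcan, Thbs1 and Fn1 had log2 fold changes between -0.09 and 0.10 and did not pass. Of 12 non-classical monocyte genes, 8 were higher and 2 lower (median 0.51), with 1 lower without WT replicate 2, WT replicate 3, AMPK-KO replicate 1 or AMPK-KO replicate 2. Among these, Cd300e rose by 1.16, the integrin gene Itgal by 1.03 and Spn, which encodes CD43, by 0.98, whereas the scavenger receptor gene Cd36 fell (log2 fold change -0.64). The median over all genes tested was -0.004 on the same scale.

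AMPK-KO samples had 3 of the 32 macrophage core genes higher and 14 lower (median -0.16), and 1 higher without WT replicate 3, AMPK-KO replicate 1 or AMPK-KO replicate 2. The 3 higher were Csf1r, Axl, a receptor for apoptotic cells (log2 fold change 0.57, adjusted p = 2.9e-05), and Sirpa, which encodes the receptor for CD47 (0.15, adjusted p = 0.0182). Scavenger receptors and lysosomal enzymes were among those that fell: Marco from 64.9 ± 6.95 to 17.9 ± 0.773 CPM, Stab1 from 2361 to 1316 CPM and Ctsd, which encodes cathepsin D, from 4937 to 2797 CPM. C1qa, Mertk, Cd14 and Fcgr1 had log2 fold changes between -0.08 and 0.08 and did not pass. Among 34 myeloid transcription factors, 12 were higher and 5 lower (8 and 3 without AMPK-KO replicate 2). Batf3, a factor of cross-presenting dendritic cells, rose by 1.12, Irf8 by 0.40 and Irf5 by 0.36 on the log2 scale. Bhlhe41 fell from 75.4 ± 3.42 to 28.0 ± 1.87 CPM, and Spic (log2 fold change -0.98), a PU.1-related factor of red pulp macrophages, and Tfec (-0.58) fell too.

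Around Csf1r, 12 of 22 genes of colony-stimulating factor signaling were higher and 10 did not pass, with a median log2 fold change of 0.30. Csf3r, the receptor for G-CSF, rose by 0.68, Csf2rb, the shared beta chain of GM-CSF receptors, by 0.64 and the phosphatase gene Ptpn6 by 0.40. Around Itgam, 8 of 20 leukocyte integrins and adaptors were higher and 12 did not pass (median 0.22), among them Itgb7 (0.86). Of 10 Ly6 genes tested, 4 were higher and 1 lower. Ly6i rose from 5.75 ± 0.627 to 28.8 ± 1.27 CPM and Ly6a, which encodes Sca-1, by 0.74 on the log2 scale, and Ly6d fell from 0.893 ± 0.298 to 0.0456 ± 0.0438 CPM. Of 12 Adgre and scavenger receptor genes, 3 were higher and 5 lower, with 1 higher without WT replicate 3 or AMPK-KO replicate 1. The sort gate genes Ptprc (0.68, adjusted p = 1.1e-05), Itgam and Ly6c2 were higher, and Ly6g had no count in any of these 6 samples.

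Markers of other cells moved with the same contrast. All 7 NK cell markers were higher, with a summed level of 33.3 to 37.2 CPM in WT and 81.7 to 84.9 CPM in AMPK-KO samples. Of 12 T cell markers 11 were higher, with sums of 151 to 172 and 273 to 274 CPM. No NK or T cell marker was at 0. Of 9 neutrophil markers 5 were higher (sums 134 to 139 and 205 to 211 CPM), with Ly6g and Ngp at 0. Csf3r, also counted in colony-stimulating factor signaling above, made up the larger part of these sums (means 96.5 CPM in WT and 154 CPM in AMPK-KO samples). Of 10 conventional dendritic cell markers 8 were higher (5 without WT replicate 3) and 1 lower. Of 8 B cell markers, 7 were lower and 1 higher (37.5 to 38.2 and 21.0 to 23.2 CPM), and 7 of 8 melanoma markers were lower (1037 to 1039.9 and 703 to 744 CPM). Of 8 fibroblast markers 6 were higher, and 4 of 5 erythroid markers tested were lower. Of 6 plasmacytoid dendritic cell markers 1 was higher and 2 lower, of 7 endothelial markers 3 were higher and 1 lower (0 without any WT library, AMPK-KO replicate 2 or AMPK-KO replicate 3), and of 3 mast cell and basophil markers 2 were higher (1 without AMPK-KO replicate 1, and 1 higher and 1 lower without AMPK-KO replicate 2). Their part in the values of Ly6c2, Plac8, Itgam and the other identity genes was not tested.

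To compare identity genes between the stages as labelled, Late samples were set against Early samples in the same way. Sex and stage cannot be told apart in this comparison. Of the 8 genes, none was higher (4.31% of all genes tested were), 3 were lower (4.88%) and 5 did not pass, so that 3 passed against 9.18% of all genes. At an unadjusted p with edgeR 0 were higher and 3 lower, and the same numbers passed at an adjusted p with DESeq2. Ly6c2 and Plac8 also exceeded an absolute log2 fold change of 1, as 1.87% of genes did. The groups did not overlap for 6 of the 8 genes (31.2% of all genes), 3 of them higher (15.6%) and 3 lower (15.6%). The median absolute log2 fold change was 0.123 over the 8 genes and 0.226 over all genes tested.

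Ly6c2 was at 31.7, 30.0 and 28.7 CPM in Early and 6.83, 8.88 and 9.47 CPM in Late samples. All Late values lay far below the Early values. The mean fell from 30.1 ± 1.51 to 8.39 ± 1.38 CPM (SD, n = 3), 3.59-fold (log2 fold change -1.84, SE 0.13, 95% interval -2.14 to -1.54, adjusted p = 4.8e-05). Plac8 was at 186, 173 and 158 CPM in Early and 74.5, 66.7 and 66.7 CPM in Late samples, again with no overlap. From 172 ± 14.4 to 69.3 ± 4.49 CPM, it was 2.49-fold lower (log2 fold change -1.31, SE 0.09, 95% interval -1.51 to -1.12, adjusted p = 2.7e-05). Ly6c1 was lower too (log2 fold change -1.14, adjusted p = 0.0327), and adding its counts to Ly6c2 gave a log2 fold change of -1.78. Per 100 reads of Adgre1, Ly6c2 had 3.15 to 3.91 reads in Early and 0.744 to 0.992 in Late samples, and Plac8 had 17.3 to 23.0 and 6.99 to 8.11.

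Maf was at 467, 454 and 547 CPM in Early and 392, 346 and 363 CPM in Late samples. All Late values lay below the Early values, and Early replicate 3 was the highest. The means of 489 ± 50.4 and 367 ± 23.3 CPM (SD, n = 3) gave a log2 fold change of -0.42 (SE 0.09, 95% interval -0.61 to -0.22, adjusted p = 0.0183). The call was lost without Late replicate 2 (adjusted p = 0.107) or Late replicate 3 (0.0919) and with no filter beyond 1 count (0.0508). Spi1 was at 472, 409 and 335 CPM in Early and 419.9, 418 and 416 CPM in Late samples, so the Early values lay on both sides of the tight Late values. Its log2 fold change was 0.04 (95% interval -0.20 to 0.29, adjusted p = 0.854), and -0.078 without Early replicate 3.

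The macrophage surface and lysosomal genes did not pass the test. Csf1r was at 945, 922 and 958 CPM in Early and 1012, 981 and 995 CPM in Late samples (log2 fold change 0.08, 95% interval -0.05 to 0.22, adjusted p = 0.462). Adgre1 was at 810.0, 874 and 909.8 CPM and at 918, 937 and 954 CPM (0.11, 95% interval -0.04 to 0.27, adjusted p = 0.341). Itgam was at 1069, 1097 and 1086 CPM and at 1131, 1110.4 and 1119 CPM (0.05, 95% interval -0.09 to 0.18, adjusted p = 0.682). In these 3 genes every Late value lay above the Early values by a margin too small to pass. Cd68 was at 1448, 1246 and 1182 CPM in Early and 1163, 1209 and 1169 CPM in Late samples, which overlapped (-0.13, 95% interval -0.32 to 0.05, adjusted p = 0.375). Among relatives, Itgax rose from 129 ± 5.57 to 190.0 ± 5.45 CPM (adjusted p = 1.0e-03) and Adgre4 fell (log2 fold change -0.85, adjusted p = 0.0187), while Itgb2, Adgre5, Lamp1, Lamp2, Csf1 and Il34 did not pass.

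**Figure D3:**
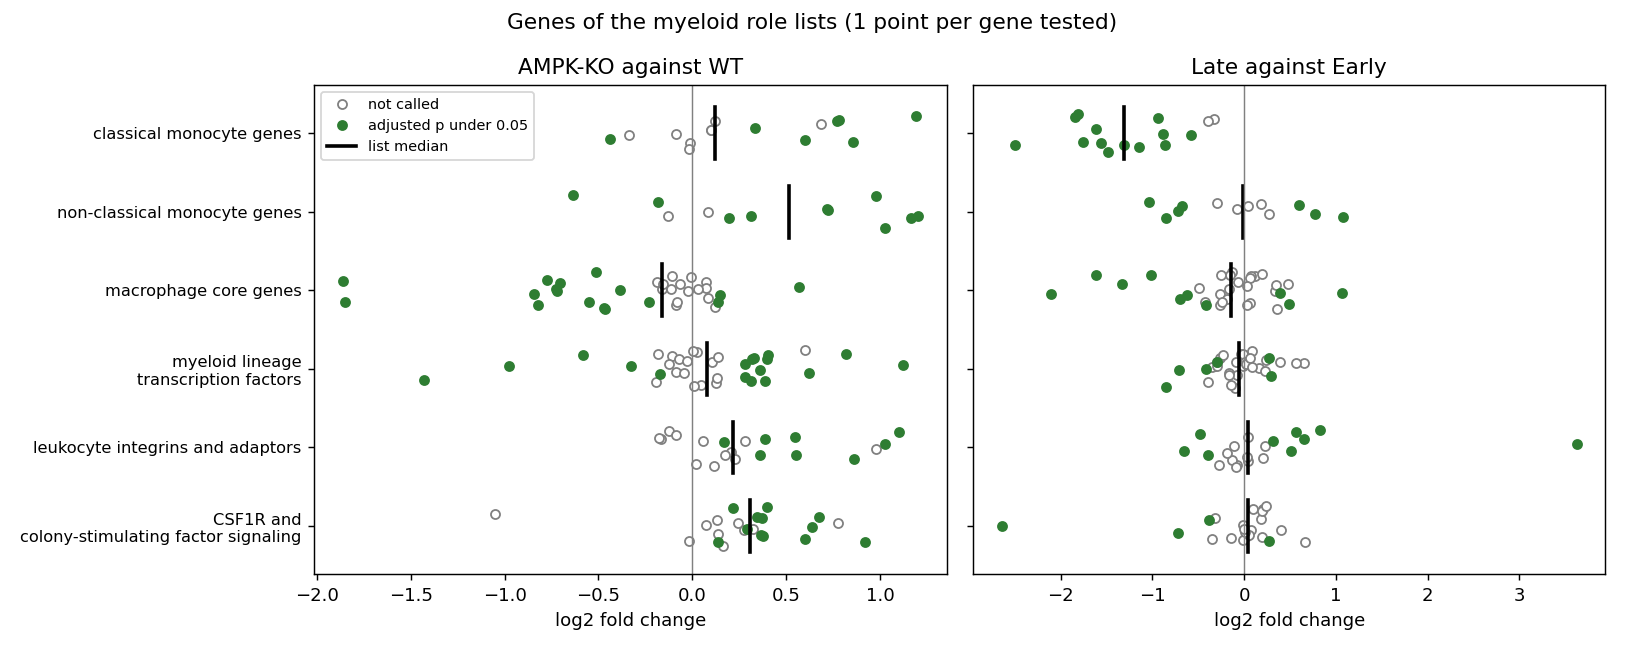
Log2 fold change of each gene tested (points, green where the adjusted p was under 0.05) in 6 lists of myeloid roles, with the list median as a black bar, for AMPK-KO against WT (left) and Late against Early (right). The median of the 15 classical monocyte genes is at 0.12 on the left and -1.31 on the right, where all 15 points lie left of 0.

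In Late against Early, 4.31% of all genes tested were higher and 4.88% lower, the shares to set beside each list count below. Of the 15 classical monocyte genes, 13 were lower in Late samples and 2 did not pass. Their median log2 fold change was -1.31 against 0.003 over all genes tested. The count stayed between 12 and 14 with any library left out. Hp, which encodes haptoglobin, fell from 22.9 ± 1.41 to 4.06 ± 0.588 CPM, Chil3, a chitinase-like lectin, from 23.0 ± 1.92 to 6.57 ± 0.505 CPM, and F13a1 from 612 ± 92.3 to 182 ± 16.6 CPM. Ccr2 fell by 1.48 on the log2 scale (adjusted p = 2.7e-04). Of 12 non-classical monocyte genes, 3 were higher and 4 lower (median -0.02), with 2 lower without Late replicate 2 or Late replicate 3. The fractalkine receptor gene Cx3cr1 rose from 119 ± 10.3 to 249.6 ± 2.23 CPM, Spn by 0.77 and Cd300e by 0.60 on the log2 scale, and Ace (-1.04), Cd36 (-0.72) and Treml4 (-0.67) fell.

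Of 32 macrophage core genes, 3 were higher and 7 lower (median -0.14), and 22 did not pass. Axl rose from 270 ± 11.6 to 564 ± 5.27 CPM, and Pros1, which encodes protein S, rose by 0.39 and the complement gene C1qa by 0.49 on the log2 scale. Lyz2 (-1.33), the hemoglobin scavenger receptor gene Cd163 (-1.62) and the folate receptor gene Folr2 (-1.02) fell. The list had 7 higher and 11 lower without Early replicate 1, and 1 higher without Early replicate 2, Late replicate 2 or Late replicate 3. Of 34 myeloid transcription factors, 2 were higher and 4 lower, against 4.31% and 4.88% of all genes tested. Runx1 (0.28) and Pparg (0.30) were higher on the log2 scale. Maf, Mitf (-0.86) and Tfec (-0.71) were among those lower, and Mitf is also 1 of the melanoma markers below. The list had 5 higher and 5 lower without Early replicate 1, 2 and 8 without Early replicate 3, 0 and 3 without Early replicate 2, 0 and 4 without Late replicate 1, and 0 and 2 without Late replicate 2 or Late replicate 3.

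In colony-stimulating factor signaling, 1 of 22 genes was higher (the phosphatase gene Inpp5d, 0.27) and 3 lower, against 4.31% and 4.88% of all genes. Those lower were Csf2rb2 (-0.71), Csf2rb (-0.38) and Csf3. Csf3 was at 1.07 ± 0.934 CPM in Early and 0.170 ± 0.107 CPM in Late samples (adjusted p = 0.0497). The list had 6 higher and 2 lower without Early replicate 1, 2 and 3 without Early replicate 3, 0 and 2 without Late replicate 1, and 0 and 1 without Early replicate 2, Late replicate 2 or Late replicate 3. Of 20 integrins and adaptors, 6 were higher and 3 lower, with 1 lower without Early replicate 2 or any Late library. Itgad, which encodes CD11d, rose from 0.640 ± 0.291 to 7.94 ± 0.244 CPM, and the laminin receptor chain gene Itga6 by 0.83 on the log2 scale, and Vcl (-0.65), which encodes vinculin, Rap1a (-0.39) and Itgb7 (-0.48) fell. Of 10 Ly6 genes, 4 were lower, including Ly6i (-1.53) and Ly6a (-0.41), with 2 lower without Early replicate 2, Late replicate 1 or Late replicate 2. Of 13 Adgre and scavenger receptor genes, 1 was higher and 4 lower, with 0 higher and 2 lower without Early replicate 2, Late replicate 2 or Late replicate 3 and 0 and 3 without Late replicate 1. Among the sort gate genes Ly6c2 and Ly6c1 were lower, with 1 lower without Early replicate 1, Early replicate 2, Late replicate 1 or Late replicate 2.

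Among markers of other cells, 5 of 7 NK cell markers were lower in Late samples (sums 89.2 to 103 CPM in Early and 39.7 to 54.2 CPM in Late), with 2 without Late replicate 2 and 3 without Late replicate 1. T cell markers went the other way, with 6 of 12 higher (249 to 262 and 317 to 369 CPM), and 2 without Early replicate 2, Late replicate 2 or Late replicate 3. Of 8 melanoma markers 6 were lower (1732 to 1886 and 795 to 1255 CPM), with 1 without Early replicate 2, 3 without Early replicate 3 and 2 without Late replicate 2. Of 8 fibroblast markers 4 were lower (861 to 926 and 414 to 586 CPM), and of 8 neutrophil markers 3 were lower (142 to 156 and 117 to 119.6 CPM). Of 8 B cell markers 4 were higher, with 2 without Early replicate 2, Late replicate 2 or Late replicate 3. Of 10 conventional dendritic cell markers 2 were higher and 2 lower, with 0 higher and 2 lower without Early replicate 2, Late replicate 2 or Late replicate 3. Of 6 plasmacytoid dendritic cell markers 1 was higher, with 0 without Late replicate 1 or Late replicate 3 and 2 without Early replicate 1. Of 8 endothelial markers 1 was lower, with 0 without Early replicate 2 or any Late library, and of 5 erythroid markers 1 was lower, with 1 without Early replicate 1 and 0 without any other library. The part of these cells in the values of Ly6c2, Plac8 and Maf was not tested.

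**Figure D4:**
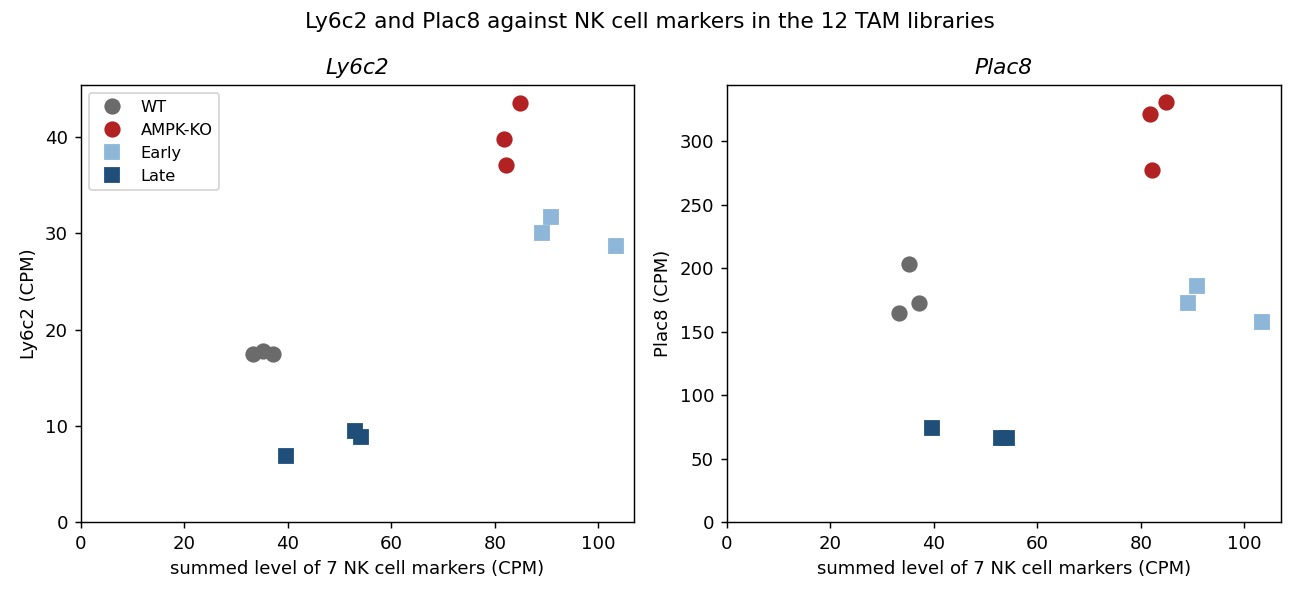
CPM of Ly6c2 (left) and Plac8 (right) against the summed CPM of 7 NK cell markers in each of the 12 samples, with circles for the knockout and squares for the stage experiment. Within each experiment the group with more Ly6c2 and Plac8 also has the higher sum. It is 81.7 to 84.9 against 33.3 to 37.2 CPM for AMPK-KO and WT and 89.2 to 103 against 39.7 to 54.2 CPM for Early and Late. The sums of neutrophil, fibroblast and endothelial markers (not drawn) also did so in both experiments without overlap, and those of the other marker lists did not.

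The AMPK-KO and Late comparisons share no samples. Of the 8 genes, 2 (Ly6c2 and Plac8) passed in both, higher in AMPK-KO and lower in Late samples. Another 4 passed in 1 (Csf1r, Cd68 and Itgam in AMPK-KO against WT, Maf in Late against Early) and 2 in neither. Whether the effects of the 2 comparisons differ was not tested, as the tables come from different experiments. Over the 6 samples of each table the log2 CPM of Ly6c2 and Plac8 had a Pearson r of 0.97, a description that the group difference carries.

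Per length of the exons, as RPKM (reads scaled by library total, TMM factor and exon length), Cd68 was the highest of the 8 genes and Ly6c2 the lowest in each group. In WT samples Cd68 was at 1083 ± 7.79, Adgre1 at 276 ± 10.4, Itgam at 212 ± 5.46, Csf1r at 209.8 ± 0.644, Spi1 at 179 ± 8.48, Plac8 at 113 ± 12.9, Maf at 60.6 ± 4.06 and Ly6c2 at 6.41 ± 0.0597 RPKM (SD, n = 3). Itgam and Csf1r overlapped in that order, and the other neighbors did not. Exon length here is the union of all annotated exons, 2740 bases for Ly6c2 against 822 in its longest coding transcript. Levels and the order of close genes depend on this choice, and transcript lengths were not tried. In AMPK-KO samples Itgam (312 ± 20.3 RPKM) stood next to Adgre1 (299.9 ± 12.6) and Plac8 (195 ± 18.0) next to Spi1 (193 ± 9.04), and both pairs overlapped. In Early samples Csf1r (163 ± 3.18 RPKM) and Spi1 (151 ± 25.5) overlapped. In Late samples Maf (44.5 ± 2.83 RPKM) stood above Plac8 (43.5 ± 2.82), which overlapped it, whereas Plac8 (108 ± 9.03) stood above Maf (59.4 ± 6.12) in Early samples without overlap. The level of Itgam is uncertain where it shares sequence with Gm49368, and that of Csf1r where 16.8% of its windows lie in Hmgxb3.

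Genes most like each member were ranked by the mean of the 2 within-table Pearson correlations of log2 CPM over 6 samples each, among 8944 genes above 10 CPM. For Ly6c2 they were AW112010 (mean r 0.993), Gzma (0.992) and Gzmb (0.992), of which the last 2 encode granzymes of NK and T cells. Plac8 was followed most closely by Nufip1 (0.983), Nfil3 (0.982) and H2-Aa (0.981), an MHC class II gene. Csf1r went with Tgfbi (0.979), Ctsc (0.972) and Myh10 (0.971), Itgam with Lrrk1 (0.976), Gk (0.976) and Havcr2 (0.971), and Adgre1 with Rbl1 (0.977), Rap1gds1 (0.972) and Lcp1 (0.972). For Cd68 they were Snx15 (0.983), Osgin1 (0.976) and Mcfd2 (0.973), for Maf Rap1a (0.973), Mob4 (0.971) and Ptpn12 (0.967), and for Spi1 Borcs6 (0.970), Plaur (0.960) and Rab4b (0.952). Samples of a table share their groups, so genes called in both comparisons rank high.

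**Figure D5:**
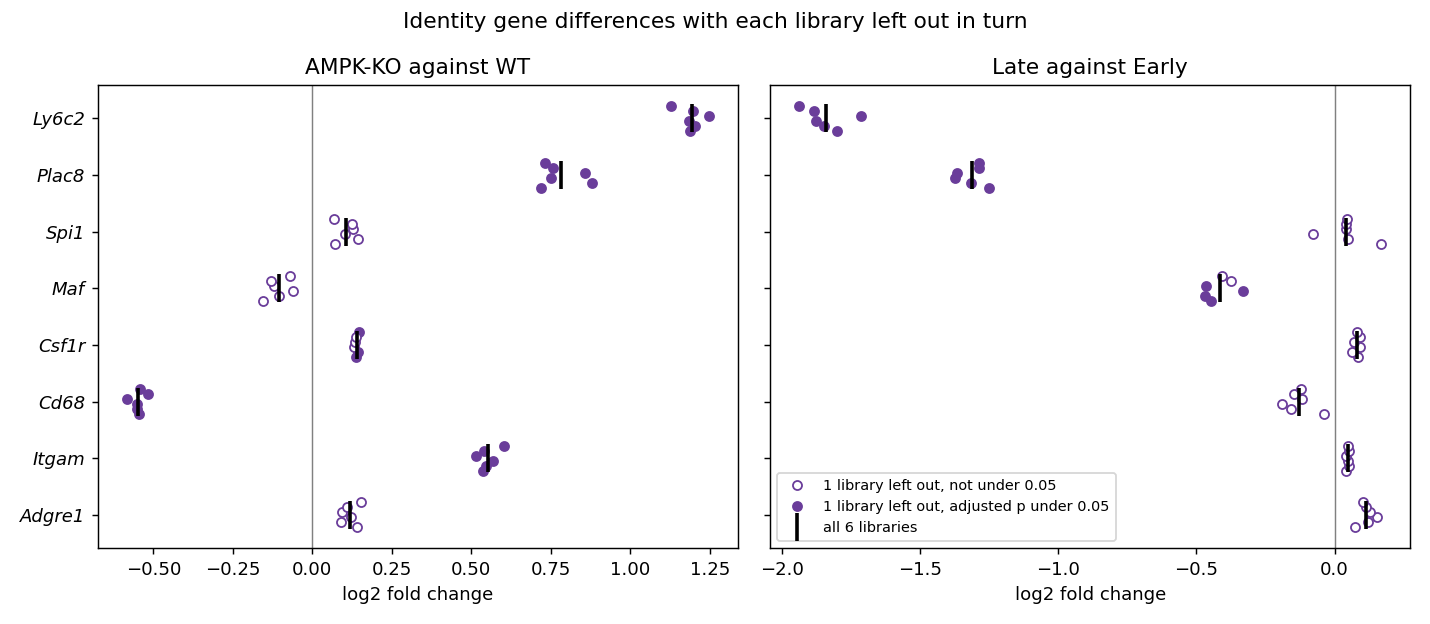
Log2 fold change of each identity gene with each of the 6 libraries of its table left out in turn (points, filled where the adjusted p was under 0.05) and with all libraries (black bar). Ly6c2 stays between 1.13 and 1.25 for AMPK-KO against WT and between -1.94 and -1.71 for Late against Early, and the points of Csf1r on the left and Maf on the right include open ones.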

How the data were processed

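Bulk RNA-seq of sorted TAMs was analyzed in 12 samples, 3 each of WT, AMPK-KO, Early and Late. The authors mapped reads with HISAT2 and assigned them to genes with featureCounts; the raw counts of each experiment were deposited as 1 table. Tool versions, strand and the handling of multiply mapped reads are not given in the sources used here, and the build is mm10 (GRCm38) per the labels, although the methods write GRCh38 for the mouse genome. Of 55401 identifiers, 54349 matched GENCODE M21 with their version, and lengths and coordinates were taken from it.

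Each table was filtered with filterByExpr, scaled by TMM and fitted on its own with edgeR 4.0.16 (glmQLFit, glmQLFTest; R 4.3.3), without covariates. A gene was called at an adjusted p under 0.05 (Benjamini-Hochberg over all genes tested). CPM are TMM-scaled, and intervals are 95% intervals from the moderated fit. The alternatives were DESeq2 1.42.0 (the tool of the study), RLE, upper-quartile or plain library scaling in edgeR, 2 other filters, a replicate block, an unadjusted p and each library left out in turn. For the members, counts were also summed over the rows of a symbol, and for Ly6c2 and Itgam those of Ly6c1 and Gm49368 were added. The fits were tested on simulated data. Depth ranged from 71019494 to 84470374 counts per library, and intervals cover the spread between samples. No pair of libraries of the same group agreed within sampling noise, and pairs across groups were not checked.

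The members and lists were chosen with earlier results of these data known. Named genes are the 8 members, close relatives, AMPK and sort gate genes, up to 3 higher and 3 lower calls per list by smallest adjusted p, and the 3 genes most correlated with each member. Genes named besides these, such as those given as not passing, were chosen after their values were seen. A few genes falling under this choice are left out of the text.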

Additional observations from a re-analysis of the deposited data

How the results depend on the processing

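Over 14 or 15 alternatives for each of the 8 genes in both comparisons, 228 values in all, 221 kept their direction and their side of the threshold. For each gene 1 of these alternatives, counts summed over the rows of a symbol, could not differ, as each gene is on 1 row. Of the others, Csf1r in AMPK-KO against WT lost its call without WT replicate 3, AMPK-KO replicate 1 or AMPK-KO replicate 2 (log2 fold change 0.13 to 0.15 with each library left out), and Maf in Late against Early without Late replicate 2 or 3 (-0.47 to -0.33 with each library left out) and with no filter beyond 1 count (-0.42). Spi1 in Late against Early reversed to -0.078 without Early replicate 3 and ran up to 0.17, with an adjusted p of 0.204 to 0.921 over all alternatives. The cause was not tested. Genes called in AMPK-KO against WT numbered 3693, between 2414 (without WT replicate 3) and 4039 with a library left out (2419 without AMPK-KO replicate 2), and 5715 at an unadjusted p. Genes also past the fold numbered 585, and 1140 at an unadjusted p with DESeq2. In Late against Early, 1619 genes were called, 936 with no filter beyond 1 count, 4313 at an unadjusted p and between 653 (without Late replicate 2) and 2835 (without Early replicate 1) with a library left out (680 without Early replicate 2, 853 without Late replicate 1 and 682 without Late replicate 3). Those also past the fold numbered 329, and 997 at an unadjusted p with DESeq2. Fewer samples or more genes tested are part of these alternatives by construction. Same-numbered samples correlated at -0.004 to 0.042 (AMPK-KO and WT) and 0.013 to 0.026 (Late and Early), so the numbers do not pair samples, and not every sample correlated best with its own number. With the replicate number as a block, 3862 and 1417 genes were called, Ly6c2 had log2 fold changes of 1.19 and -1.85, and no member's call changed. Ly6c2, the lowest of the 8 genes, had at least 574 counts in every library.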
